A study of Homo sapiens with 12 samples.

Results

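The 51 genes described here are the core autophagy genes and a set of lysosomal genes, taken from a written list of gene symbols with no threshold on a measured value. All 51 were found among the 38434 named genes of both count tables, and all 51 passed the filter on low counts in every comparison. They fall into 8 groups by role. These are the ULK complex (5 genes), the class III PI3K complex (6), membrane supply (7), conjugation (11), the ATG8 family (5), receptors (5), the MiT/TFE factors (3) and the lysosome (9).

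RNA was sequenced from stable derivatives of 2 human lung cancer cell lines, RERF-LC-AI and LK-2, both of which have little or no maspin of their own. Maspin (gene SERPINB5) is a serpin that inhibits no protease and is regarded as a tumor suppressor. LC-AI-maspin and LK2-maspin cells carried a lentiviral vector for maspin and the green fluorescent protein ZsGreen, joined by a P2A peptide, and LC-AI-ctrl and LK2-ctrl cells carried ZsGreen alone. All 4 groups had therefore been transduced and selected with blasticidin, were pools of resistant clones, and were represented by 3 libraries each. RERF-LC-AI cells were grown in Eagle's minimum essential medium and LK-2 cells in RPMI1640, and the tables of the lines were made separately, so that line, medium and table cannot be told apart. The labels do not say whether the libraries of a group came from separate cultures, so p-values measure the spread between these libraries, which may be technical.

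The comparison asks whether maspin changed the mRNA levels of the autophagy machinery in either line. Counts of named genes summed to 50181666 to 65454432 per library in LC-AI-maspin, 50143577 to 57558323 in LC-AI-ctrl, 39802246 to 53148368 in LK2-maspin and 44278486 to 54941357 in LK2-ctrl. SERPINB5 itself had 513, 480 and 438 CPM (read counts set relative to the library total, with TMM factors within each line) in LC-AI-maspin, against 0.271, 0.143 and 0.201 CPM in LC-AI-ctrl. It had 50.9, 50.7 and 48.4 CPM in LK2-maspin and 2.02, 2.01 and 1.87 CPM in LK2-ctrl libraries, so every library matched its label. Of 7 squamous markers, 5 reached a mean of 1 CPM in LK2-maspin and 4 in LK2-ctrl, with SOX2 at 428 CPM in LK2-maspin and 537 CPM in LK2-ctrl. The next highest of the 7 was DSG3, at 7.55 CPM in LK2-maspin and 5.07 CPM in LK2-ctrl. TP63 had means of 1.14 CPM in LK2-maspin and 1.27 CPM in LK2-ctrl, and KRT5 of 7.44 and 0.780 CPM. KRT14 and PKP1 were below 1 CPM in both groups, so that the squamous label of LK-2 rested mainly on SOX2. Only 2 of the 7 (DSG3 and PKP1) reached a mean of 1 CPM in LC-AI-maspin and in LC-AI-ctrl, where TP63 had means of 0.718 and 0.596 CPM and KRT5 of 0.0806 and 0.0396 CPM, so that the squamous label of RERF-LC-AI was not borne out by these markers. Of 4 adenocarcinoma or alveolar markers, 2 reached a mean of 1 CPM in LK2-maspin and in LK2-ctrl. These were NKX2-1 (4.96 and 6.46 CPM) and SFTPB (1.75 and 1.58 CPM), while NAPSA and SFTPC did not. In RERF-LC-AI cells 0 reached it in LC-AI-maspin and 1 in LC-AI-ctrl (SFTPB, 1.03 CPM). The 4 epithelial markers summed to 1351 to 1448 CPM in LC-AI-maspin and 1849 to 1961 CPM in LC-AI-ctrl libraries, mostly through KRT8. In these groups EPCAM had means of 4.57 and 5.03 CPM and CDH1 of 2.11 and 2.75 CPM. In LK-2 cells the 4 summed to 1846 to 1895 CPM in LK2-maspin and 1668 to 1703 CPM in LK2-ctrl libraries, with EPCAM at means of 591 and 575 CPM. The 4 fibroblast markers summed to 21.6 to 24.3 CPM in LC-AI-maspin and 30.6 to 46.0 CPM in LC-AI-ctrl, mostly through COL1A2, and the 4 leukocyte markers summed to 39.9 to 44.7 CPM in LC-AI-maspin and 43.6 to 44.4 CPM in LC-AI-ctrl, nearly all of it CD68, with PTPRC at means of 0.555 and 0.247 CPM. The part of these shifts in the results below was not tested. In bulk RNA, fewer cells that express a gene and less of its RNA per cell cannot be told apart.

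Autophagy encloses cytoplasm in a double membrane, the autophagosome, and delivers it to the lysosome for breakdown. The ULK kinase complex starts the process, the class III PI3-kinase complex marks the growing membrane with phosphatidylinositol 3-phosphate, and lipid transfer proteins supply it. Enzymes related to those of ubiquitin then attach ATG8 proteins (LC3 and GABARAP) to lipid, and cargo receptors bind both ubiquitin and ATG8. In cancer cells the pathway serves as a source of amino acids under starvation. Levels of mRNA do not measure its flux, and the SQSTM1 and LC3 proteins are themselves broken down by it.

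The factors TFEB, TFE3 and MITF act on lysosome and autophagy genes through the CLEAR element, TCACGTGA, which contains the E-box CACGTG. Both are palindromes, so that 1 search covers both strands. Of the 51 members, 44 had a promoter window in RefSeq's annotation of GRCh38.p14, from 250 bases before to 50 bases after the start of transcription. CACGTG was found in 5 of the 44 genes (ATG3, ATG14, CTSD, LAMP1 and MCOLN1). Counted by window, it was in 5 of the 56 windows of members (8.93%) and in 7.26% of all 35116 windows. Of the 9 lysosome genes 6 had a window, and CACGTG was in 3 of these 6 windows (50%). ATG14 belongs to the class III PI3K complex and ATG3 to conjugation, and windows of the remaining groups did not hold it. TCACGTGA was found in 3 genes (ATG3, LAMP1 and MCOLN1), in 3 of the 56 windows of members (5.36%) and in 0.9796% of all windows. In the lysosome group it was in 2 of the 6 windows (33.3%). The 10-letter form was found in 1 gene (MCOLN1), in 1 of the 56 windows (1.79%) and in 0.353% of all windows. The windows of ATG3 and CTSD, which rose in LC-AI-maspin cells, are shown with those of LAMP1 and MCOLN1, which hold the same letters and did not pass the test in either line. Each is printed 5′ to 3′ up to base 30 after the start, with every CACGTG in capitals: ATG3 from chr3:112561933-112562212 (minus strand), CTSD from chr11:1763898-1764177 (minus strand), LAMP1 from chr13:113296989-113297268 (plus strand) and MCOLN1 from chr19:7522374-7522653 (plus strand).
ATG3: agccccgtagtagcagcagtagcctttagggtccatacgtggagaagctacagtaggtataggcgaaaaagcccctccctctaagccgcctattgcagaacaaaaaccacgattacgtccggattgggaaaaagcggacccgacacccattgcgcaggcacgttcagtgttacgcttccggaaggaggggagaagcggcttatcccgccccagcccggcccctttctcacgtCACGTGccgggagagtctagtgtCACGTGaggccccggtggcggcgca
CTSD: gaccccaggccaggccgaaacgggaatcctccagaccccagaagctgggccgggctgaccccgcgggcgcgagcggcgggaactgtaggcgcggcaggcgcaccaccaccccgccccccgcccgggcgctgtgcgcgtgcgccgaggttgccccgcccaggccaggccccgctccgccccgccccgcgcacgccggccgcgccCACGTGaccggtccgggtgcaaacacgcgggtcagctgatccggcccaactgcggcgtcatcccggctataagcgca
LAMP1: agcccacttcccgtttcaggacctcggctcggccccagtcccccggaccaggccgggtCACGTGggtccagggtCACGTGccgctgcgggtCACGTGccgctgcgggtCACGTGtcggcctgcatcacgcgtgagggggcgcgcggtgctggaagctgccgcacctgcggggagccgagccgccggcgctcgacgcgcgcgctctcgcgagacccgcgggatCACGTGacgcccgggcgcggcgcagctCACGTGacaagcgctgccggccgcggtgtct
MCOLN1: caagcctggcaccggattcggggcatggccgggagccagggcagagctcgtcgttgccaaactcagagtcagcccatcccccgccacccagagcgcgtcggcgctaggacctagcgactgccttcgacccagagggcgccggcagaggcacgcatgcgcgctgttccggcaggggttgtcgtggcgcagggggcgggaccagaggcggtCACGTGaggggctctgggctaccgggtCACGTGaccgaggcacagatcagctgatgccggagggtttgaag
LAMP1 held 6 copies of CACGTG and CTSD 1, while ATG3 and MCOLN1 held 2 each. CACGTG was present in 2 of the 15 members that changed in RERF-LC-AI cells (13.3%) and in 3 of the 29 with a window that did not pass (10.3%). TCACGTGA was present in 1 of the 15 and in 2 of the 29. These are too few genes to compare the shares, and the part of the motif in the changes was not tested.

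In RERF-LC-AI cells 15 of the 51 members passed the test, 12 of them higher and 3 lower with maspin, where 10.5% of all 25197 genes tested passed (4.01% higher and 6.53% lower). Among genes with a mean of at least 3 CPM, a level that all members had, 19.0% passed (6.87% higher and 12.2% lower). The largest rise was that of the cargo receptor SQSTM1, 1.39-fold, and the other 11 rises were 1.14-fold (CALCOCO2) to 1.28-fold (ATG7). The genes that fell were TAX1BP1, WIPI2 and GABARAPL2, to 0.849, 0.866 and 0.899 of the ctrl level. The test was edgeR's quasi-likelihood F test with Benjamini–Hochberg adjustment over all genes, at an adjusted p under 0.05. In LK-2 cells none of the 51 passed, where 0.533% of 26270 genes did, or 0.949% of those with a mean of at least 3 CPM (0.670% higher and 0.280% lower).

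The sizes were small. At an unadjusted p under 0.05 there were 23 of 51 members, where 20.8% of all genes had such a p. The 15 log2 fold changes were 0.15 to 0.47 in size with a median of 0.27. The median size over all 51 members was 0.10, against 0.15 over all genes tested. Shares and medians of all genes in this paragraph include genes below the 3 CPM that all members had. They are therefore not matched to the members by level. The median log2 fold change was -0.01 over the members and 0.01 over all genes, with 24 of 51 members above 0. Fitting all 12 libraries together, which shares one estimate of the spread, left 9 members past the test (7 higher and 2 lower). In that fit 4.14% of all genes passed. With the replicate number as a block, 7 more passed, MAP1LC3B, MITF and NBR1 as higher and MAP1LC3A, CTSB, UVRAG and GLA as lower, where 16.2% of all genes then did. In all 15 genes the 3 LC-AI-maspin libraries lay entirely on one side of the 3 LC-AI-ctrl libraries. Counting every member, 15 lay entirely above and 7 entirely below (22 of 51), where 25.1% of all genes did so (11.9% above and 13.2% below).

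**Figure D1:**
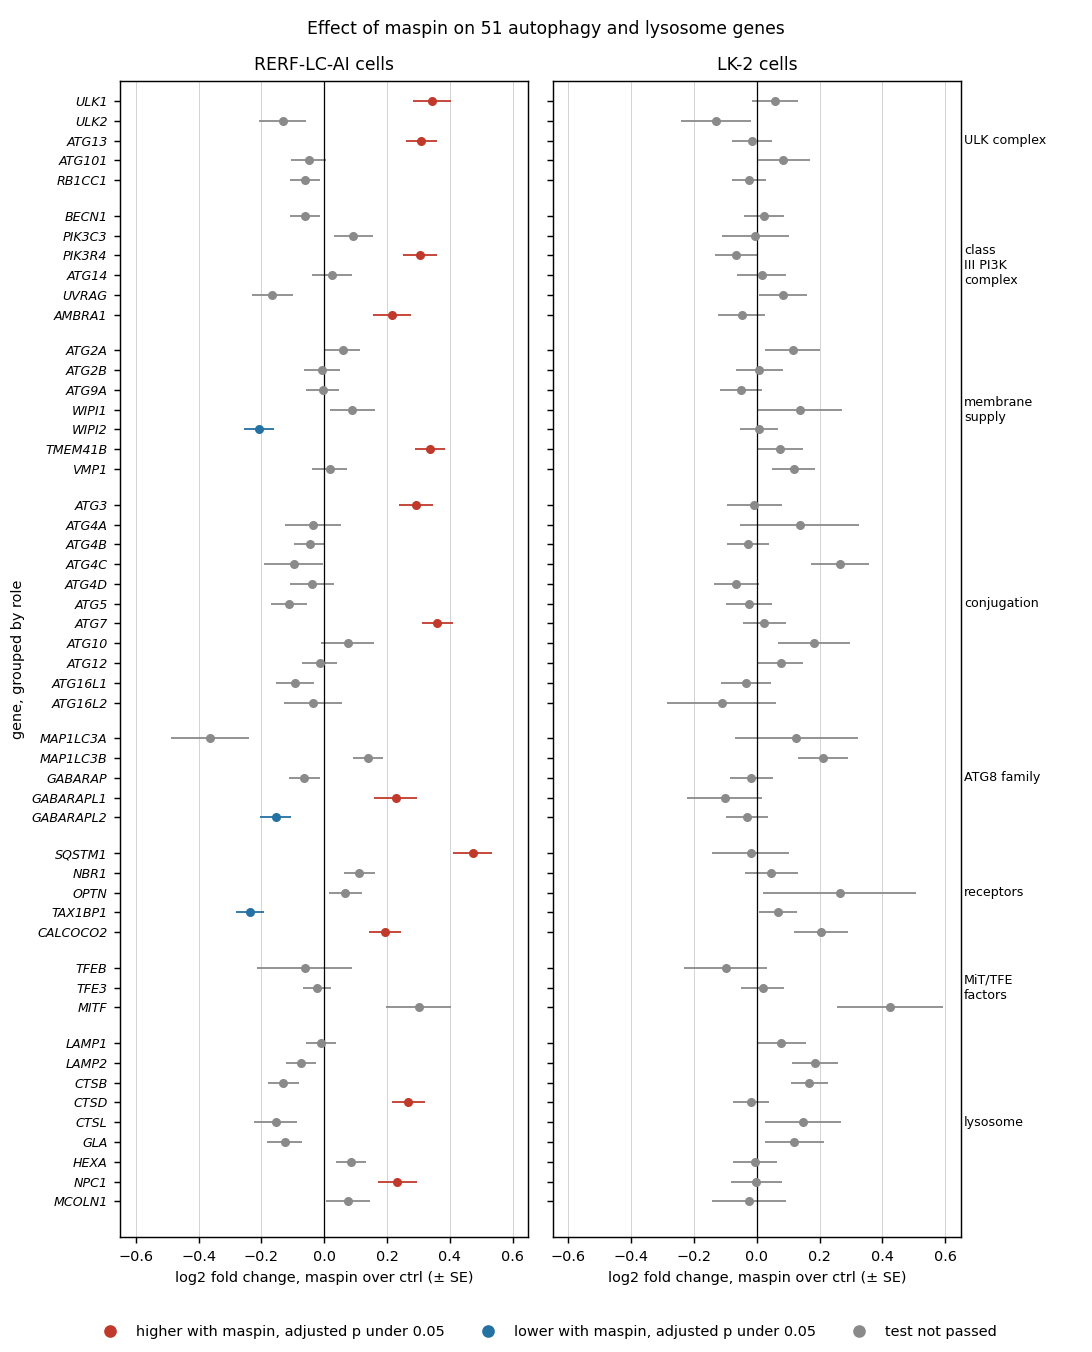
Log2 fold change of maspin over ctrl (horizontal axis, with SE) for each of the 51 members, by role, in RERF-LC-AI cells (left) and LK-2 cells (right). Red and blue points passed the test, 12 higher and 3 lower in RERF-LC-AI cells, and grey points did not, which is all 51 in LK-2 cells.

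Of the ULK complex, which starts autophagy, the kinase ULK1 and its regulatory partner ATG13 rose in LC-AI-maspin cells, and 3 of 5 genes did not pass. ULK1 (Entrez ID 8408, chr12:131894622-131923150 in GENCODE 44 on GRCh38, as for all genes below) had 56.7, 59.7 and 56.2 CPM in LC-AI-maspin, against 49.5, 40.6 and 46.0 CPM in LC-AI-ctrl. Its log2 fold change was 0.34 (SE 0.06, edgeR adjusted p = 0.000187), with every maspin library above every ctrl library. In LK-2 cells ULK1 had 49.6, 51.7 and 52.2 CPM in LK2-maspin and 46.6, 46.8 and 54.0 CPM in LK2-ctrl, and the groups overlapped. ATG13 (Entrez ID 9776, chr11:46617527-46674818) had 72.9, 77.1 and 74.2 CPM in LC-AI-maspin and 59.9, 59.97 and 61.2 CPM in LC-AI-ctrl. The groups were well apart, with a log2 fold change of 0.31 (SE 0.05, edgeR adjusted p = 5.22e-05). In LK-2 cells ATG13 had 76.2, 69.2 and 73.1 CPM in LK2-maspin and 75.4, 73.7 and 71.8 CPM in LK2-ctrl, a log2 fold change of -0.02 (SE 0.06).

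The scaffold RB1CC1 (FIP200), the related kinase ULK2 and ATG101, which stabilizes ATG13, did not pass in either line. RB1CC1 had means of 109 CPM in LC-AI-maspin and 114 CPM in LC-AI-ctrl and of 251.3 CPM in LK2-maspin and 256 CPM in LK2-ctrl. ULK2 had a log2 fold change of -0.13 in both lines (SE 0.08 in RERF-LC-AI and 0.11 in LK-2). ATG101 had -0.05 (SE 0.06) in RERF-LC-AI and 0.08 (SE 0.08) in LK-2 cells.

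In the class III PI3K complex, PIK3R4 and AMBRA1 rose in LC-AI-maspin cells, and 4 of 6 genes did not pass. PIK3R4 (Entrez ID 30849, chr3:130678934-130746829) encodes VPS15, the subunit that holds the lipid kinase in place. It had 62.4, 67.6 and 65.6 CPM in LC-AI-maspin and 50.2, 56.1 and 52.1 CPM in LC-AI-ctrl, without overlap, a log2 fold change of 0.31 (SE 0.05, edgeR adjusted p = 0.0002). In LK-2 cells it had 53.0, 56.5 and 53.5 CPM in LK2-maspin and 60.6, 56.8 and 53.1 CPM in LK2-ctrl, and the ranges overlapped. AMBRA1 (Entrez ID 55626, chr11:46396414-46594125), a regulator of the Beclin 1 complex, had 35.0, 40.6 and 36.4 CPM in LC-AI-maspin and 32.1, 32.3 and 32.1 CPM in LC-AI-ctrl. Its ctrl libraries were nearly equal and the maspin libraries spread above them, with a log2 fold change of 0.22 (SE 0.06, edgeR adjusted p = 0.0192). Without LC-AI-maspin replicate 2 the adjusted p of AMBRA1 was 0.171, and without LC-AI-ctrl replicate 3 it was 0.0815. In LK-2 cells AMBRA1 had 35.8, 38.2 and 33.2 CPM in LK2-maspin and 38.0, 37.4 and 35.3 CPM in LK2-ctrl, with groups that overlapped.

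The other 4 members of the complex had log2 fold changes of -0.17 (UVRAG) to 0.09 (PIK3C3) in RERF-LC-AI cells. BECN1, the Beclin 1 subunit, had a mean of 73.7 CPM in LC-AI-maspin and 76.9 CPM in LC-AI-ctrl (log2 fold change -0.06, SE 0.05). The lipid kinase itself, PIK3C3 (VPS34), had 35.7 CPM in LC-AI-maspin and 33.5 CPM in LC-AI-ctrl. UVRAG, a subunit of the endosomal form of the complex, had 30.1, 27.5 and 26.1 CPM in LC-AI-maspin and 30.2, 33.1 and 30.4 CPM in LC-AI-ctrl. All 3 maspin libraries of UVRAG lay below the ctrl libraries, but the adjusted p was 0.119 (edgeR). ATG14, which directs the complex to autophagosomes, differed by 0.03 (SE 0.06) on the log2 scale. In LK-2 cells all 6 genes lay between -0.06 (PIK3R4) and 0.08 (UVRAG).

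Of the 7 genes that supply membrane, TMEM41B rose, WIPI2 fell and 5 did not pass in RERF-LC-AI cells. TMEM41B (Entrez ID 440026, chr11:9280654-9314636) encodes a lipid scramblase of the endoplasmic reticulum. It had 170.5, 169.9 and 179.8 CPM in LC-AI-maspin and 133, 143 and 135 CPM in LC-AI-ctrl. The lowest maspin library was well above the highest ctrl library, with a log2 fold change of 0.34 (SE 0.05, edgeR adjusted p = 8.45e-06). In LK-2 cells TMEM41B stood much lower, at 28.7, 32.5 and 31.3 CPM in LK2-maspin and 29.2, 29.7 and 29.0 CPM in LK2-ctrl, with groups that overlapped. VMP1, the related scramblase, had means of 35.0 CPM in LC-AI-maspin and 34.6 CPM in LC-AI-ctrl (log2 fold change 0.02, SE 0.06).

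WIPI2 (Entrez ID 26100, chr7:5190196-5233840) binds phosphatidylinositol 3-phosphate and brings in ATG16L1. WIPI2 had 99.4, 102 and 95.9 CPM in LC-AI-maspin and 117, 112 and 114 CPM in LC-AI-ctrl. All maspin libraries were below all ctrl libraries (log2 fold change -0.21, SE 0.05, edgeR adjusted p = 0.00319), and without LC-AI-maspin replicate 3 the adjusted p was 0.0521. In LK-2 cells WIPI2 had 93.4, 96.7 and 96.0 CPM in LK2-maspin and 91.9, 99.8 and 92.9 CPM in LK2-ctrl, which overlapped. Its relative WIPI1 had means of 20.1 CPM in LC-AI-maspin and 18.9 CPM in LC-AI-ctrl (log2 fold change 0.09, SE 0.07). The lipid transporters ATG2A and ATG2B and the scramblase ATG9A had log2 fold changes of 0.06 (SE 0.06), -0.01 (SE 0.06) and -0.01 (SE 0.05) in RERF-LC-AI cells.

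Of 11 conjugation genes, 2 rose in LC-AI-maspin cells, and both, ATG7 and ATG3, encode enzymes that act in turn on the ATG8 proteins. ATG7 (Entrez ID 10533, chr3:11272309-11557665), the activating E1-like enzyme of both conjugation systems, had 193, 219 and 200.4 CPM in LC-AI-maspin and 161, 160.3 and 156 CPM in LC-AI-ctrl. The groups did not overlap, and the log2 fold change was 0.36 (SE 0.05, edgeR adjusted p = 6.02e-06). In LK-2 cells ATG7 had 41.2, 46.0 and 44.2 CPM in LK2-maspin and 41.6, 43.5 and 44.2 CPM in LK2-ctrl (log2 fold change 0.02, SE 0.07). ATG3 (Entrez ID 64422, chr3:112532510-112562046), the E2-like enzyme that places ATG8 proteins on lipid, had 96.8, 101 and 103 CPM in LC-AI-maspin and 77.9, 89.0 and 78.8 CPM in LC-AI-ctrl. It was higher in all maspin libraries, with a log2 fold change of 0.29 (SE 0.05, edgeR adjusted p = 0.000257). In LK-2 cells ATG3 had 63.7, 60.3 and 55.6 CPM in LK2-maspin and 66.6, 61.0 and 53.0 CPM in LK2-ctrl, with a wide overlap.

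The other 9 conjugation genes had log2 fold changes of -0.11 (ATG5) to 0.07 (ATG10) in RERF-LC-AI cells, with a smallest adjusted p of 0.276 (edgeR). They include the rest of the ATG12 system. ATG5, which ATG12 is joined to, had means of 40.5 CPM in LC-AI-maspin and 43.8 CPM in LC-AI-ctrl. ATG12 had 43.0 CPM in LC-AI-maspin and 43.4 CPM in LC-AI-ctrl. ATG16L1, which guides the ATG12–ATG5 conjugate to the membrane, had 30.4 CPM in LC-AI-maspin and 32.4 CPM in LC-AI-ctrl. The ATG4 proteases, which trim ATG8 proteins and free them from lipid, had log2 fold changes of -0.04 (ATG4A and ATG4D), -0.05 (ATG4B) and -0.10 (ATG4C). In LK-2 cells ATG4C had the smallest p of all members. It had 14.1, 14.8 and 14.96 CPM in LK2-maspin and 12.9, 11.9 and 11.7 CPM in LK2-ctrl, which did not overlap, but the adjusted p of this log2 fold change of 0.27 (SE 0.09) was 0.517 (edgeR).

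The 5 ATG8 genes did not move together in RERF-LC-AI cells. GABARAPL1 passed the test as higher and GABARAPL2 as lower, and MAP1LC3A, MAP1LC3B and GABARAP did not pass. GABARAPL1 (Entrez ID 23710, chr12:10212458-10223128) had 22.1, 22.6 and 21.8 CPM in LC-AI-maspin and 19.3, 19.4 and 18.1 CPM in LC-AI-ctrl. The groups were apart (log2 fold change 0.23, SE 0.07, edgeR adjusted p = 0.0275), but the call was lost without any of the 3 maspin libraries or without LC-AI-ctrl replicate 3, with adjusted p of 0.0634 to 0.162. In LK-2 cells GABARAPL1 had 27.9, 31.9 and 33.7 CPM in LK2-maspin and 27.8, 33.1 and 39.5 CPM in LK2-ctrl, which overlapped. GABARAPL2 (Entrez ID 11345, chr16:75566375-75577881) had 62.5, 64.1 and 64.6 CPM in LC-AI-maspin and 72.9, 70.5 and 69.5 CPM in LC-AI-ctrl. All maspin libraries were lower (log2 fold change -0.15, SE 0.05, edgeR adjusted p = 0.0408), and leaving out any 1 of the 6 libraries gave an adjusted p of 0.0639 to 0.139. In LK-2 cells it had 37.9, 41.9 and 40.6 CPM in LK2-maspin and 40.4, 41.3 and 41.2 CPM in LK2-ctrl, again with overlap.

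MAP1LC3B, the most widely used marker of autophagosomes, had 165, 171 and 172 CPM in LC-AI-maspin and 161, 147 and 153 CPM in LC-AI-ctrl. Its maspin libraries were all higher, with a log2 fold change of 0.14 (SE 0.05) and an adjusted p of 0.0624 (edgeR). In LK-2 cells MAP1LC3B had 43.4, 47.8 and 51.8 CPM in LK2-maspin and 39.3, 43.7 and 40.5 CPM in LK2-ctrl, a log2 fold change of 0.21 (SE 0.08, edgeR adjusted p = 0.612) with 1 maspin library inside the ctrl range. MAP1LC3A, the ATG8 gene with the lowest level per kb in LC-AI-ctrl, had 3.78, 4.25 and 4.49 CPM in LC-AI-maspin and 5.51, 5.45 and 5.19 CPM in LC-AI-ctrl. All its maspin libraries were lower, but the log2 fold change of -0.36 (SE 0.13) had an adjusted p of 0.0622 (edgeR). With DESeq2 both MAP1LC3B (adjusted p = 0.0420) and MAP1LC3A (adjusted p = 0.0324) passed in RERF-LC-AI cells. GABARAP had means of 114 CPM in LC-AI-maspin and 119 CPM in LC-AI-ctrl. Near-identical copies exist of MAP1LC3B (the gene MAP1LC3B2) and of GABARAPL1 (the pseudogene GABARAPL3), so that reads could be split between copies and these values are uncertain.

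Of the 5 cargo receptors, SQSTM1 and CALCOCO2 rose, TAX1BP1 fell, and NBR1 and OPTN did not pass in RERF-LC-AI cells. SQSTM1 (p62, Entrez ID 8878, chr5:179806398-179838078), which gathers ubiquitinated proteins, had 901, 778 and 706 CPM in LC-AI-maspin and 615, 547 and 556 CPM in LC-AI-ctrl. The maspin libraries spread widely (795 ± 98.7 CPM, against 573 ± 36.8 CPM in LC-AI-ctrl, SD, n = 3 each), but the lowest of them was above the highest ctrl library. The log2 fold change was 0.47 (SE 0.06, edgeR adjusted p = 2.78e-06). In LK-2 cells SQSTM1 had 541, 466 and 413 CPM in LK2-maspin and 560.3, 488 and 389.8 CPM in LK2-ctrl, with almost the same range in both groups (log2 fold change -0.02, SE 0.12). The difference between the lines in this effect, 0.50 (SE 0.16), had an adjusted p of 0.162 (edgeR interaction test). With the replicate number as a block it was 0.48, with an adjusted p of 1.82e-07 by the same test. Without LK2-ctrl replicate 3 and without the block it was 0.60 (adjusted p = 0.00811). The labels do not say that equal numbers mark a shared culture, so the answer for SQSTM1 depends on the fit.

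TAX1BP1 (Entrez ID 8887, chr7:27739331-27844564), a receptor for protein aggregates that binds ubiquitin and ATG8 proteins, had 159, 157 and 153 CPM in LC-AI-maspin and 187, 181 and 185 CPM in LC-AI-ctrl. Libraries within a group were close to each other and the groups were well apart, with a log2 fold change of -0.24 (SE 0.05, edgeR adjusted p = 0.000507). In LK-2 cells TAX1BP1 had 84.8, 78.3 and 83.2 CPM in LK2-maspin and 77.1, 78.4 and 79.6 CPM in LK2-ctrl, with overlap. CALCOCO2 (NDP52, Entrez ID 10241, chr17:48831018-48866522), a receptor for bacteria and mitochondria, had 78.3, 87.7 and 78.4 CPM in LC-AI-maspin and 71.7, 70.0 and 72.0 CPM in LC-AI-ctrl. Every maspin library was higher, with a log2 fold change of 0.19 (SE 0.05, edgeR adjusted p = 0.0124). Without LC-AI-maspin replicate 2, its highest library, the adjusted p was 0.109, and without LC-AI-ctrl replicate 3 it was 0.0522. In LK-2 cells CALCOCO2 had 27.2, 30.2 and 33.0 CPM in LK2-maspin and 24.9, 26.7 and 26.9 CPM in LK2-ctrl. These groups did not overlap either, and the log2 fold change was 0.20 (SE 0.09) with an adjusted p of 0.712 (edgeR).

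NBR1, the receptor related to SQSTM1, had means of 138 CPM in LC-AI-maspin and 128 CPM in LC-AI-ctrl (log2 fold change 0.11, SE 0.05, edgeR adjusted p = 0.179). OPTN, which also serves in the removal of mitochondria, had 64.9 CPM in LC-AI-maspin and 61.9 CPM in LC-AI-ctrl (0.07, SE 0.05, log2). In LK-2 cells OPTN averaged 4.78 CPM in LK2-maspin and 3.99 CPM in LK2-ctrl and had the widest error of all members, 0.26 (SE 0.24) on the log2 scale.

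**Figure D2:**
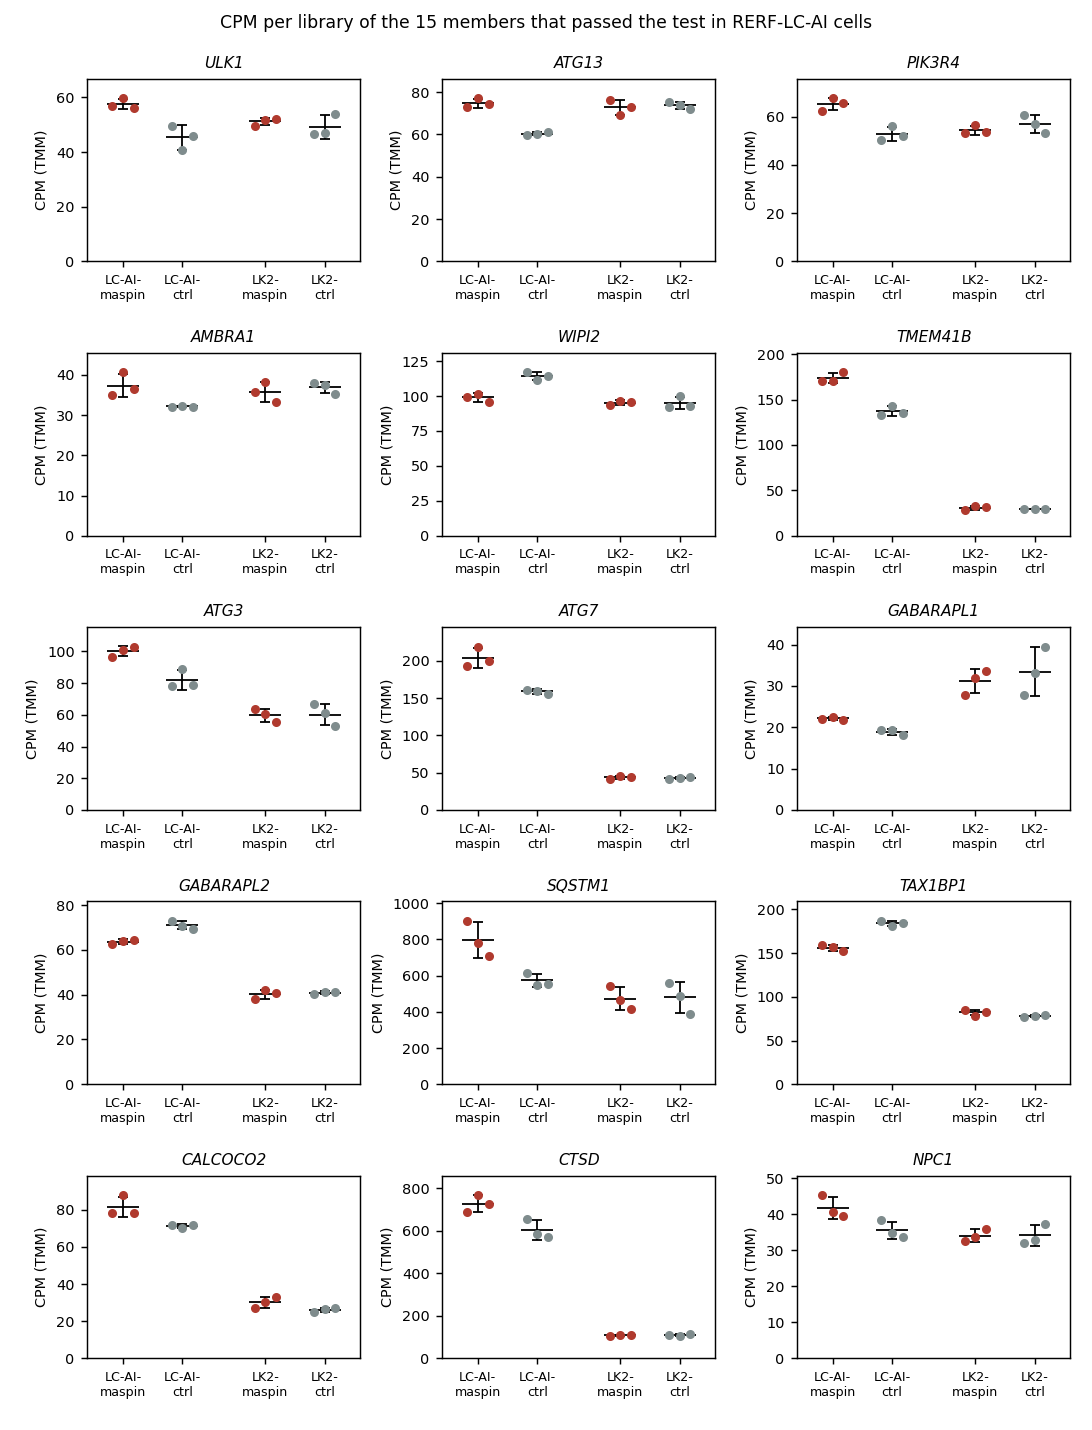
CPM (vertical axes, from 0) of the 15 members that passed the test in RERF-LC-AI cells, with 1 point per library, and the mean and SD of each group of 3 in black. Red points are maspin and grey points ctrl libraries. LC-AI-maspin and LC-AI-ctrl libraries lie apart in every panel, while LK2-maspin and LK2-ctrl overlap in all but CALCOCO2.

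None of the 3 MiT/TFE factors passed in either line (0 of 3 with edgeR, and 1 of 3 in each line, MITF, with an unadjusted p under 0.05). MITF did pass in RERF-LC-AI cells with DESeq2 (adjusted p = 0.0458), with upper-quartile factors (0.0448) and by library size alone (0.0454). Of the 3, TFE3 had the highest level per kb of transcript in ctrl cells of both lines. It had 200.2, 199 and 195 CPM in LC-AI-maspin and 209, 196 and 199 CPM in LC-AI-ctrl, with groups that overlapped (log2 fold change -0.02, SE 0.05). In LK-2 cells TFE3 had 34.7, 33.1 and 33.3 CPM in LK2-maspin and 34.2, 33.8 and 31.7 CPM in LK2-ctrl. TFEB had 3.99, 3.57 and 2.67 CPM in LC-AI-maspin and 3.67, 3.36 and 3.61 CPM in LC-AI-ctrl, so that a change of this gene would be hard to see (-0.06, SE 0.15, log2). In LK-2 cells TFEB had 9.02, 9.68 and 10.8 CPM in LK2-maspin and 9.52, 9.51 and 12.6 CPM in LK2-ctrl, with overlap. MITF had 9.39, 9.88 and 8.25 CPM in LC-AI-maspin and 7.54, 7.97 and 6.80 CPM in LC-AI-ctrl. Its maspin libraries were all higher, but the adjusted p of the log2 fold change of 0.30 (SE 0.10) was 0.0617 (edgeR). In LK-2 cells MITF had 7.94, 11.2 and 11.3 CPM in LK2-maspin and 6.15, 7.52 and 9.002 CPM in LK2-ctrl, a log2 fold change of 0.42 (SE 0.17, edgeR adjusted p = 0.661), the highest of the 51 in that line. Its groups overlapped in LK-2 cells.

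Of the 9 lysosome genes, CTSD and NPC1 rose in LC-AI-maspin cells, and 7 did not pass. CTSD (Entrez ID 1509, chr11:1752752-1764573), the aspartic protease cathepsin D, had 689, 767 and 727 CPM in LC-AI-maspin and 658, 583 and 572 CPM in LC-AI-ctrl. The lowest maspin and the highest ctrl library were close, and the log2 fold change was 0.27 (SE 0.05, edgeR adjusted p = 0.000596). In LK-2 cells CTSD had 106, 111 and 112 CPM in LK2-maspin and 112, 107 and 114 CPM in LK2-ctrl (log2 fold change -0.02, SE 0.06). NPC1 (Entrez ID 4864, chr18:23506184-23586506), which moves cholesterol out of the lysosome, had 45.3, 40.6 and 39.5 CPM in LC-AI-maspin and 38.3, 34.7 and 33.7 CPM in LC-AI-ctrl. The groups did not overlap (log2 fold change 0.23, SE 0.06, edgeR adjusted p = 0.0125), but the adjusted p was 0.115 without LC-AI-maspin replicate 1 and 0.118 without LC-AI-ctrl replicate 3. In LK-2 cells NPC1 had 32.6, 33.6 and 36.0 CPM in LK2-maspin and 31.99, 33.0 and 37.3 CPM in LK2-ctrl, which overlapped.

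The cysteine cathepsins had values on the other side of 0 from CTSD in RERF-LC-AI cells. CTSB had 207, 223 and 204 CPM in LC-AI-maspin and 242, 233 and 218 CPM in LC-AI-ctrl (log2 fold change -0.13, SE 0.05, edgeR adjusted p = 0.101), with a slight overlap. CTSL had 21.3, 19.9 and 20.1 CPM in LC-AI-maspin and 21.8, 23.8 and 22.5 CPM in LC-AI-ctrl (-0.16, SE 0.07, log2), without overlap, and pseudogenes close to it make its counts uncertain. The membrane glycoproteins LAMP1 and LAMP2, which line the lysosome, had log2 fold changes of -0.01 (SE 0.05) and -0.07 (SE 0.05). LAMP1, with 6 copies of CACGTG in its window, averaged 309 CPM in LC-AI-maspin and 311 CPM in LC-AI-ctrl, and the 95% interval of its log2 fold change was -0.11 to 0.09. MCOLN1, the lysosomal calcium channel, had 19.8 CPM in LC-AI-maspin and 18.8 CPM in LC-AI-ctrl (0.08, SE 0.07, log2). The glycosidases GLA and HEXA had log2 fold changes of -0.13 (SE 0.06) and 0.08 (SE 0.05).

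In LK-2 cells edgeR called 0 of the 51 members, its likelihood ratio test 0 and DESeq2 0. At an unadjusted p under 0.05 there were 6 (ATG4C, MAP1LC3B, CALCOCO2, MITF, LAMP2 and CTSB), all higher with maspin, where 6.36% of all genes had such a p. The 51 log2 fold changes were -0.13 (ULK2) to 0.42 (MITF), with a median size of 0.07, against 0.11 over all genes tested. The 95% interval lay within -0.5 and 0.5 on the log2 scale for 47 of 51 members, so that larger changes lay outside the interval of most. In 5 members (ATG4C, ATG12, CALCOCO2, LAMP2 and CTSB) all LK2-maspin libraries were above all LK2-ctrl libraries and in 0 below, where 6.37% of all genes were above and 5.53% below.

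LAMP2 had 84.2, 93.3 and 99.3 CPM in LK2-maspin and 76.9, 83.7 and 82.8 CPM in LK2-ctrl (log2 fold change 0.18, SE 0.07, edgeR adjusted p = 0.646). CTSB, the cysteine protease cathepsin B, had 97.4, 101 and 105 CPM in LK2-maspin and 87.0, 90.0 and 92.5 CPM in LK2-ctrl (0.17, SE 0.06, edgeR adjusted p = 0.55). Neither gene's groups overlapped, and neither passed. When the replicate number was added as a block, 5 members passed in LK-2 cells, where 4.53% of all genes then did. All 5 were higher with maspin (CTSB, LAMP2, MITF, CALCOCO2 and MAP1LC3B), and the labels do not say that equal numbers mark a shared culture or day.

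**Figure D3:**
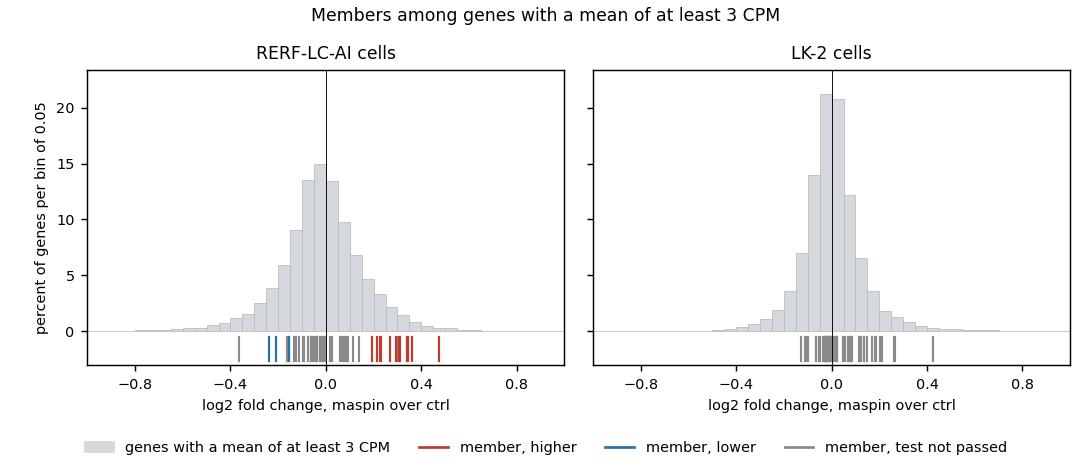
Share of genes with a mean of at least 3 CPM (vertical axis, percent) by log2 fold change of maspin over ctrl (horizontal axis, bins of 0.05) in RERF-LC-AI cells (left) and LK-2 cells (right). The ticks under each histogram are the 51 members, red and blue where they passed the test, and they lie between -0.36 and 0.47 in RERF-LC-AI cells and between -0.13 and 0.42 in LK-2 cells.

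An interaction term in a fit of all 12 libraries tested whether the effect of maspin differed between the lines. TAX1BP1 was the member that passed, with an interaction of -0.30 (SE 0.08) on the log2 scale, the effect in RERF-LC-AI minus that in LK-2 cells (adjusted p = 0.0460, edgeR), 1 of 51 members where 1.76% of 28123 genes passed (0.402% higher and 1.35% lower). Leaving out 1 library gave TAX1BP1 an adjusted p of up to 0.159 (without LC-AI-maspin replicate 3). An unadjusted p under 0.05 was reached by 18 of 51 members, where 12.5% of all genes reached it. This share is not limited to genes with at least 3 CPM, a level that all members had. The members next in line were ATG13 (0.33, SE 0.08, adjusted p = 0.0520), ATG7 (0.34, SE 0.09, adjusted p = 0.0602), PIK3R4 (0.37, SE 0.10, adjusted p = 0.0640) and CTSB (-0.30, SE 0.08, adjusted p = 0.0846), all by edgeR's quasi-likelihood test. When 1 library was left out, the count was 0 without LK2-maspin replicate 3, LK2-ctrl replicates 1 and 2, LC-AI-maspin replicates 1 and 3 or any LC-AI-ctrl library, 2 without LK2-maspin replicate 1 or LC-AI-maspin replicate 2, and 5 without LK2-ctrl replicate 3. Of all genes, 0.950% to 2.61% passed with 1 library left out. With the replicate number as a block, 15 members passed, 10 with a higher and 5 with a lower effect in RERF-LC-AI cells, where 8.08% of all genes did. Other fits without the block also called members that the main test did not. The likelihood ratio test called ATG13 (adjusted p = 0.0209), PIK3R4 (0.0250) and ATG7 (0.0290), as did upper-quartile factors and library size alone, and DESeq2 called ATG13 (0.0454) and CTSB (0.0161).

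Levels of the members in ctrl cells differed between the lines. These values come from tables that were scaled separately, so that they are a description. In LC-AI-ctrl 13 of the 51 members were over 2-fold higher than in LK2-ctrl, 3 were over 2-fold lower, and the median ratio was 1.17. Set per kb of the canonical transcript, so that genes can be compared, CTSD was the highest member in LC-AI-ctrl (294 CPM per kb, against 54.1 in LK2-ctrl), followed by SQSTM1 (202 in LC-AI-ctrl and 169 in LK2-ctrl), LAMP1 (115 and 74.5) and GABARAP (90.3 and 77.1). The widest gap was that of OPTN, at 17.8 CPM per kb in LC-AI-ctrl and 1.15 in LK2-ctrl, a ratio of 15.5.

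TFE3 stood at 61.1 CPM per kb in LC-AI-ctrl and 10.1 in LK2-ctrl, and TFEB at 1.52 in LC-AI-ctrl and 4.51 in LK2-ctrl. The factor with the higher level therefore was TFE3 in both lines, by a wider margin in RERF-LC-AI cells. Of the 15 members that changed with maspin in RERF-LC-AI cells, TMEM41B, ATG7, TAX1BP1, CALCOCO2 and CTSD were over 2-fold higher in LC-AI-ctrl than in LK2-ctrl, and the other 10 were within 2-fold. Among the ATG8 genes, MAP1LC3B had 71.6 CPM per kb in LC-AI-ctrl and 19.2 in LK2-ctrl, close to GABARAPL2 in LC-AI-ctrl (72.9) and below it in LK2-ctrl (42.1). RB1CC1 and ATG4D were the other genes over 2-fold lower in LC-AI-ctrl, with ratios of 0.444 and 0.472.

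**Figure D4:**
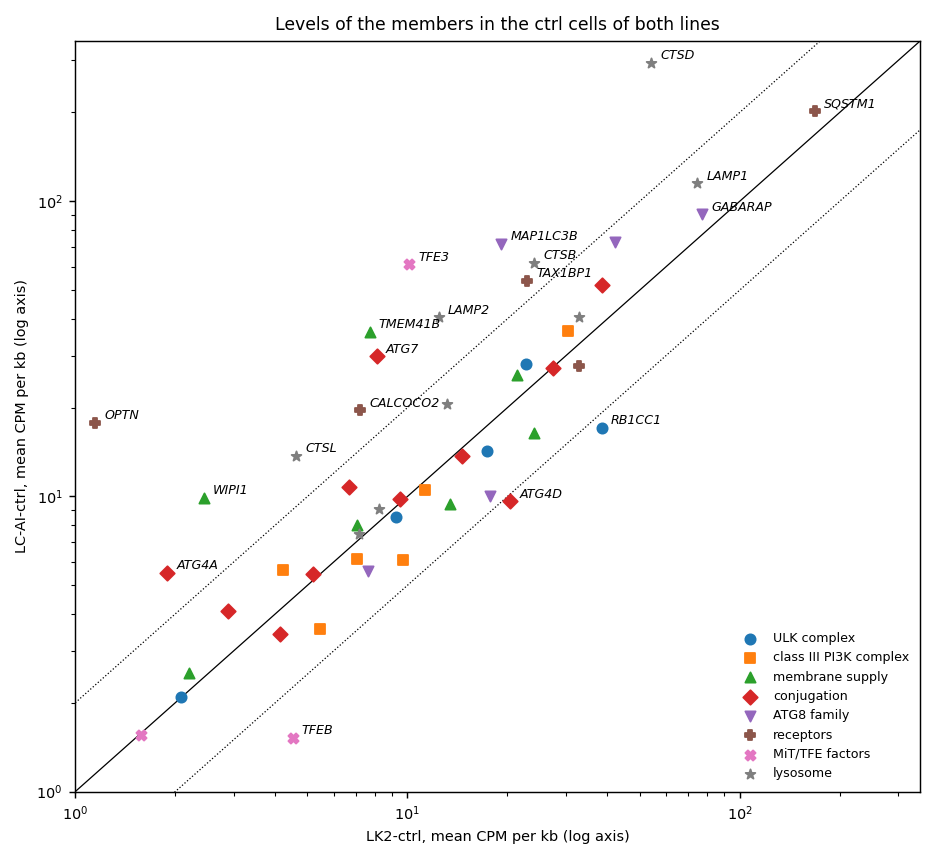
Mean CPM per kb of the 51 members in LC-AI-ctrl (vertical log axis) and LK2-ctrl (horizontal log axis), with symbols by role. The solid line marks equal levels and the dotted lines a ratio of 2, which 13 members exceed toward LC-AI-ctrl (OPTN the farthest, with a ratio of 15.5) and 3 toward LK2-ctrl.

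Beyond the 51 members, 7 further lists of the pathway held 182 genes, of which 181 were tested in RERF-LC-AI and 179 in LK-2 cells. In RERF-LC-AI cells 14 rose, 24 fell and 143 did not pass. Of all genes tested 4.01% rose and 6.53% fell in that line, and 6.87% and 12.2% of those with a mean of at least 3 CPM. In LK-2 cells 2 rose and none fell (edgeR, with 10 of 179 at an unadjusted p under 0.05), where 0.533% of all genes passed and 0.949% of those with a mean of at least 3 CPM. The counts of single lists below stand against these shares, and none is set apart from them by a test. Median log2 fold changes over the further lists together were -0.01 in RERF-LC-AI and 0.02 in LK-2 cells, where that of all genes tested was 0.01 in RERF-LC-AI cells. In the lists with no call in LK-2 cells, the smallest adjusted p were those of SNX7 (0.981), PHB2 (0.431), YKT6 (0.816), ATP6AP1 (0.815) and OSTM1 (0.499).

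Among 35 regulators of mTORC1 and AMPK, the kinases that hold back and set off autophagy, 4 rose and 5 fell in LC-AI-maspin cells. DDIT4 (REDD1), an inhibitor of mTORC1 that is induced by stress, had 258, 287 and 263 CPM in LC-AI-maspin and 190.3, 155 and 158 CPM in LC-AI-ctrl. SESN2, a leucine sensor that inhibits mTORC1, had 84.4, 101 and 81.8 CPM in LC-AI-maspin and 64.5, 59.9 and 53.0 CPM in LC-AI-ctrl. The groups of both genes were well apart, with log2 fold changes of 0.68 (SE 0.06, edgeR adjusted p = 2.74e-09) and 0.59 (SE 0.07, adjusted p = 3.31e-07). Both were larger than that of any member, but in the fit over all 12 libraries the adjusted p of DDIT4 was 0.235, with 6.48, 12.1 and 19.4 CPM in LK2-maspin and 4.10, 7.202 and 16.2 CPM in LK2-ctrl libraries. PRKAG2, a regulatory subunit of AMPK, fell (-0.36, SE 0.06, adjusted p = 6.05e-05), as did LAMTOR1, which anchors the Ragulator complex to the lysosome (-0.24, SE 0.05, adjusted p = 0.00114).

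In LK-2 cells 1 gene of this list rose, the AMPK subunit PRKAB1. It had 28.2, 30.3 and 34.5 CPM in LK2-maspin and 21.3, 21.3 and 20.1 CPM in LK2-ctrl. The groups were apart, and the log2 fold change was 0.57 (SE 0.09, edgeR adjusted p = 0.0127). Leaving out LK2-maspin replicate 2 gave an adjusted p of 0.0983, leaving out LK2-maspin replicate 3 gave 0.0559, and leaving out LK2-ctrl replicate 2 gave 0.102. In RERF-LC-AI cells PRKAB1 had 19.6, 20.5 and 17.9 CPM in LC-AI-maspin and 19.8, 21.4 and 20.3 CPM in LC-AI-ctrl, which overlapped.

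Of 24 V-ATPase genes, which acidify the lysosome, 23 were tested in RERF-LC-AI cells, and 4 fell and 0 rose (edgeR, with 8 of 23 in either direction at an unadjusted p under 0.05, where 20.8% of all genes had such a p). The 4 were the peripheral stalk subunit ATP6V1G1 (log2 fold change -0.32, SE 0.05, adjusted p = 9.91e-05), the accessory subunit ATP6AP1 (-0.22, SE 0.05, adjusted p = 0.00231), ATP6V0A4 (-0.67, SE 0.18, adjusted p = 0.00979) and ATP6V1H (-0.17, SE 0.05, adjusted p = 0.0368). ATP6V1G1 had 46.9, 51.5 and 48.1 CPM in LC-AI-maspin and 59.6, 61.0 and 61.8 CPM in LC-AI-ctrl, with no overlap. ATP6V0A4 was low in both groups, at 1.39 to 1.77 CPM in LC-AI-maspin and 2.36 to 2.73 CPM in LC-AI-ctrl, and its adjusted p was 0.0523 without LC-AI-maspin replicate 1. The call of ATP6V1H was lost, at adjusted p of 0.0656 to 0.196, without any 1 library other than LC-AI-ctrl replicate 1.

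Of 42 lysosomal hydrolases, 3 rose and 3 fell in LC-AI-maspin cells. The lysosomal nuclease DNASE2 (0.40, SE 0.06, adjusted p = 2.76e-05, log2, edgeR) and the peptidase TPP1 (0.30, SE 0.05, adjusted p = 6.89e-05) rose, and the cathepsins CTSF (-0.50, SE 0.08, adjusted p = 4.82e-05) and CTSC (-0.26, SE 0.05, adjusted p = 0.000604) fell. DNASE2 had 61.7, 70.3 and 69.5 CPM in LC-AI-maspin and 55.7, 47.2 and 50.3 CPM in LC-AI-ctrl, and TPP1 had 228, 257 and 245 CPM in LC-AI-maspin and 206, 193 and 193 CPM in LC-AI-ctrl. Neither gene's groups overlapped, and 36 of the 42 hydrolases did not pass. In LK-2 cells the cathepsin CTSZ rose, with 116, 127 and 124 CPM in LK2-maspin and 82.1, 93.5 and 90.6 CPM in LK2-ctrl (0.46, SE 0.07, adjusted p = 0.00940, log2, edgeR). The adjusted p of CTSZ was 0.120 without LK2-maspin replicate 2 and 0.0549 without LK2-ctrl replicate 2.

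Of 27 lysosomal membrane proteins, 3 rose and 4 fell in RERF-LC-AI cells. LITAF (0.32, SE 0.07, adjusted p = 0.000935, log2, edgeR) rose, and the lysosomal transmembrane proteins LAPTM4B (-0.21, SE 0.05, adjusted p = 0.00228) and LAPTM4A (-0.19, SE 0.05, adjusted p = 0.0045) and the sorting receptor SORT1 (-0.21, SE 0.05, adjusted p = 0.00359) fell. The adjusted p of LAPTM4A was 0.0610 without LC-AI-maspin replicate 3. Of 17 genes for the fusion of autophagosomes with lysosomes, 1 rose and 2 fell. RAB7A, the small GTPase of late endosomes, had 395, 404 and 391.9 CPM in LC-AI-maspin and 320.2, 331 and 322 CPM in LC-AI-ctrl, with libraries close together within each group (0.29, SE 0.04, adjusted p = 2.64e-05, log2, edgeR). The SNAREs STX17, which sits on autophagosomes, and VAMP8, its partner on lysosomes, both fell, with log2 fold changes of -0.30 (SE 0.08, adjusted p = 0.0121) and -0.31 (SE 0.08, adjusted p = 0.00834). The call of STX17 was lost without LC-AI-maspin replicate 3 (adjusted p = 0.146) and that of VAMP8 without LC-AI-ctrl replicate 3 (adjusted p = 0.126). Both calls were lost without another library too, at adjusted p of 0.0684 (STX17, without LC-AI-ctrl replicate 3) and 0.0904 (VAMP8, without LC-AI-maspin replicate 1).

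Of 20 further selective autophagy receptors, TOLLIP rose and 4 fell. RTN3, ATL3 and TEX264 were those of the 4 with the smallest adjusted p. RTN3 had 157, 157 and 156 CPM in LC-AI-maspin and 179, 186 and 188 CPM in LC-AI-ctrl, ATL3 had 94.6, 96.0 and 94.2 CPM in LC-AI-maspin and 105, 117 and 113 CPM in LC-AI-ctrl, and TEX264 had 22.4, 23.1 and 23.5 CPM in LC-AI-maspin and 25.4, 26.5 and 28.7 CPM in LC-AI-ctrl. None of their groups overlapped, and log2 fold changes were -0.23 (SE 0.05, adjusted p = 0.000627), -0.23 (SE 0.05, adjusted p = 0.00140) and -0.22 (SE 0.07, edgeR adjusted p = 0.0250). Of 17 further core genes, WDR45 (0.21) and EPG5 (0.19) rose and SNX30 (-0.52) and EI24 (-0.24) fell on the log2 scale. TEX264 lost its call without any of the 3 LC-AI-maspin libraries or LC-AI-ctrl replicate 3, with adjusted p of 0.0675 to 0.208, and EPG5 without LC-AI-maspin replicate 2 (0.0706) or LC-AI-ctrl replicate 3 (0.0696).

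Counts were assigned to genes by a setting that the sources used here do not give. Of the 51 members, 25 share exon sequence with a gene on the opposite strand and 6 with a gene on the same strand, among them ATG7 (with VGLL4), ATG13 (with HARBI1), ATG3 (with SLC35A5), SQSTM1 (with MGAT4B and MRNIP), TAX1BP1 (with JAZF1) and NPC1 (with RMC1). The libraries were strand-specific, but if strand was not used in counting, reads of such pairs were pooled.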

How the data were processed

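RNA-seq libraries were poly(A)-selected and strand-specific. Per the labels and the study's methods, the authors trimmed reads with Trimmomatic 0.39, aligned them with BWA 0.7.17 to GRCh38.p13, used SAMtools 1.12 (LK-2) or 1.10 (RERF-LC-AI), and deposited raw read counts per gene, with edgeR 3.16.5 named for their own comparison. Which tool counted the reads is not stated in the labels or methods. The authors also deposited 24 columns of scaled signal values, which were not used. Low counts were mostly even (23.9% to 26.2% of counts of 1 to 9 were odd), as when each read of a pair is counted. Rows without a symbol (646, at most 0.416% of counts) were left out.

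Within each line, genes passing filterByExpr (minimum count 10, total 15) were fitted with TMM factors in edgeR 4.0.16 (R 4.3.3) and tested with the quasi-likelihood F test, with Benjamini–Hochberg adjustment over all genes at 0.05. The difference between lines was tested over all 12 libraries. The SE is the size of the log2 fold change over the square root of F. Libraries of a group differed by more than sampling noise (chi-square of 4.44 to 23.9 per degree of freedom). Counts of the members in a library were 135 to 49712, and errors were wider for members with few counts. The spread between libraries of a group, which edgeR names the biological coefficient of variation, was 6.43% in RERF-LC-AI and 11.7% in LK-2 cells. It may be technical, since the labels do not state separate cultures. Alternatives were edgeR's likelihood ratio test, DESeq2 1.42.0, other scalings and filters, a replicate block, a joint fit and leaving out each library.

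The members and lists were chosen with earlier results of these data known. Values in every library were given for members past the test, for the MiT/TFE factors and for some others, chosen after their values were seen. From each further list, up to 4 genes with the smallest adjusted p under 0.05 in each line were named, else the 1 gene with the smallest adjusted p.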

Additional observations from a re-analysis of the deposited data

Results flagged for a closer look

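The effect of maspin differed between the lines, by the interaction test of edgeR over all 12 libraries, for 1 of the 51 members and 8 of 181 genes of the further lists (1 higher and 7 lower), where 1.76% of all genes passed (0.402% higher and 1.35% lower). The values are given for the 8 of these that were named above, by their p within a line. Each value is the log2 fold change in RERF-LC-AI minus that in LK-2 cells. Line, medium, table, maspin level and the place of maspin in the cell differed together and cannot be told apart here. Among the 51 members this was TAX1BP1, at -0.30 (adjusted p = 0.0460). Of the further lists, RAB7A had 0.29 (adjusted p = 0.0494), ATL3 -0.47 (adjusted p = 0.0120), ATP6AP1 -0.35 (adjusted p = 0.0328) and CTSC -0.37 (adjusted p = 0.0455). The AMPK subunits PRKAB1 and PRKAG2 had -0.65 (adjusted p = 0.00550) and -0.53 (adjusted p = 0.0106), and the cathepsin CTSZ had -0.54 (adjusted p = 0.00469). PRKAB1 and CTSZ passed within LK-2 cells, and the other 6 within RERF-LC-AI cells. Groups of 3 libraries were not tested for outlying values.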

How the results depend on the processing

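In RERF-LC-AI cells 8 of the 15 members (ULK1, ATG13, PIK3R4, TMEM41B, ATG7, SQSTM1, TAX1BP1 and CTSD) passed under all 15 alternatives, and no member that passed changed direction under any of them. The count of 15 members was 9 in the joint fit of 12 libraries, where 4.14% of all genes passed. It was 10 to 15 when 1 library was left out, where 6.78% to 9.86% of all genes passed. With other tools, scalings and filters it was 14 to 18, where 7.67% to 12.6% of all genes passed. By library size alone the split was 15 higher and 2 lower. In LK-2 cells the count of 0 stayed at 0 in every alternative but the block. For the interaction the count of 1, where 1.76% of all genes passed, was 4 with the likelihood ratio test (3.14% of all genes) and 3 with DESeq2 (3.49%). It was 3 with upper-quartile factors (1.96%), 4 with library size only (2.17%) and 3 with at least 10 counts in every library (3.05%). When 1 library was left out it was 0 to 5 (0.950% to 2.61%). TAX1BP1 passed in 9 of these 20 alternatives. Of the further genes named, the joint fit lost EI24 (adjusted p = 0.0790), WDR45 (0.0909), EPG5 (0.128), TEX264 (0.204), DDIT4 (0.235), LAMTOR1 (0.0661), ATP6V0A4 (0.235), ATP6V1H (0.146), LAPTM4B (0.0719) and LAPTM4A (0.0569). The cause of these shifts was not tested.

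With the replicate number as a block, 5 members passed in LK-2, 22 in RERF-LC-AI (15 higher and 7 lower) and 15 in the interaction, where 4.53%, 16.2% and 8.08% of all genes did. Deviations of libraries with the same number had correlations of 0.154, 0.0144 and 0.164 in LK-2 and of 0.0437, 0.0533 and 0.00167 in RERF-LC-AI cells. Over genes with a mean log2 CPM above 3 they were 0.744, 0.113 and 0.750 in LK-2 and 0.369, 0.3897 and 0.203 in RERF-LC-AI cells. Over all genes every LK-2 library correlated best with its own number, though not every value was over 0.1. In RERF-LC-AI cells no value over all genes was over 0.1. Over the more abundant genes, which include most members, every value was over 0.1 in both lines. The labels do not settle whether equal numbers mark pairs, so the fits are given both ways. Over all genes RERF-LC-AI replicate 3 did not correlate best with its own number, and over the more abundant genes LK2-ctrl replicate 2 did not.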
